A study of Mus musculus with 4 samples.

Results

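The genes described here carry iron through the liver: Hamp, Hamp2, Tfrc, Tfr2, Trf, Hfe, Slc40a1, Fth1, Ftl1 and Bmp6, 10 genes among 21631 protein-coding genes. Their accessible chromatin was taken from ATAC-seq peak lists, in which a peak marks a place where the Tn5 transposase cut often enough for the caller to list it. Peaks were included when they lay inside one of these genes or within 50 kb of either of its ends. After overlapping peaks of the libraries had been joined, 57 regions of the 38853 in the series met this rule. The libraries came from frozen livers of female FVB mice, all 11 weeks old and fed standard chow. Wild-type mice gave 2 libraries (WT 1 and WT 2), and mice labelled PA gave the other 2 (PA 1 and PA 2). The labels give the PA mice as hypomorphic Pcca-/- (A138T). Pcca encodes a subunit of propionyl-CoA carboxylase. The sources used here do not say what drives the hypomorphic form or in which cells.

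Hepatocytes secrete hepcidin, the product of Hamp, which binds the iron exporter ferroportin (Slc40a1) and has it degraded, so that less iron enters the plasma. Bmp6, made mainly by endothelial cells of the liver sinusoids, raises Hamp transcription in hepatocytes through SMAD proteins, and Hfe and Tfr2 take part in sensing iron-loaded transferrin. Transferrin (Trf) carries iron in plasma, Tfrc takes it into cells, and the ferritin subunits Fth1 and Ftl1 store it.

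The stretches of reference sequence on which the results turn are the 250 bases that end just before an annotated start, from the RefSeq promoter table of GRCm38.p6, whose strain differs from FVB. The table held 8 of the 10 genes. Trf and Slc40a1 were not among them. Sequences are printed 5′ to 3′ along the gene's own strand, and capitals mark matches, on either strand, to 5 motifs known at iron or liver genes. These were GGCGCC (a BMP response element), TTCNNNGAA (a STAT site), TGACNNNGC (the core of an antioxidant response element), ACGTG (the core of a hypoxia response element, also part of the E-box CACGTG) and TTGCNNAA (a C/EBP site). Of 21045 such windows of protein-coding genes, 12.4% held GGCGCC, 6.64% TTCNNNGAA, 10.5% TGACNNNGC, 17.9% ACGTG and 9.18% TTGCNNAA. Among the 7366 of them with at least 1 bp of a peak in every library, the shares were 18.4%, 5.50%, 12.8%, 24.1% and 6.65% in the same order. Hamp and Hamp2 are shown because they are near copies that differ at a motif. Tfrc and the inner start of Fth1 are shown as windows with a peak in every library, and Bmp6 and Hfe as windows with a peak in none. They lie at chr7:30944030-30944279 (Hamp, minus strand), chr7:30924182-30924431 (Hamp2, minus), chr16:32608646-32608895 (Tfrc, plus), chr19:9982396-9982645 (Fth1, plus), chr13:38345466-38345715 (Bmp6, plus) and chr13:23710855-23711104 (Hfe, minus).
Hamp: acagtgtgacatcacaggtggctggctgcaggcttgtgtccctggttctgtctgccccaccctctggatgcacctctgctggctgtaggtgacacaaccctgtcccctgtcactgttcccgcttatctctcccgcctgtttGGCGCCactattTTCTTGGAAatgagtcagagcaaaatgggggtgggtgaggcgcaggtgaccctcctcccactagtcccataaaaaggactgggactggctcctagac
Hamp2: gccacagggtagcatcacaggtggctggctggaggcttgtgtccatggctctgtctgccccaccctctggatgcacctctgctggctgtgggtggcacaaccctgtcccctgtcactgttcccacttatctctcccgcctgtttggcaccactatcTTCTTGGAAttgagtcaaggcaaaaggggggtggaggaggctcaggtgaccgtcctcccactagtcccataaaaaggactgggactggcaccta
Tfrc: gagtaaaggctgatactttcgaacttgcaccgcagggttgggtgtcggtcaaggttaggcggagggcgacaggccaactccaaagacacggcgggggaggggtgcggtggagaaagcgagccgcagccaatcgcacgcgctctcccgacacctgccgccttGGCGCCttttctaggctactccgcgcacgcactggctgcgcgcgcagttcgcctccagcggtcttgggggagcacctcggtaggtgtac
Fth1: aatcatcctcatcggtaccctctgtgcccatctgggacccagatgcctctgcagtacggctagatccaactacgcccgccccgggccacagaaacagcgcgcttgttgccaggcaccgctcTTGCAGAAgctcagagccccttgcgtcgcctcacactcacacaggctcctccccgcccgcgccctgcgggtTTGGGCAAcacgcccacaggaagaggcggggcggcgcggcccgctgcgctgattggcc
Bmp6: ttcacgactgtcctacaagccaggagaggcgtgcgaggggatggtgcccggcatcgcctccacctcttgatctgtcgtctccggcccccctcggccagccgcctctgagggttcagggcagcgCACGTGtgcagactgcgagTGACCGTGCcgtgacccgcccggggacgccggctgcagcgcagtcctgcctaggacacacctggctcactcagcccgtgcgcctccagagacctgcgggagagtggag
Hfe: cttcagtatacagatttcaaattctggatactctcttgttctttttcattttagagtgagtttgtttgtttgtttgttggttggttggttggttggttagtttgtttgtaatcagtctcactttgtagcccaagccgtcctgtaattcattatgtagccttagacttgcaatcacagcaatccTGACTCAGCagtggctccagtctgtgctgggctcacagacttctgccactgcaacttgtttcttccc

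Over all 10 windows, the lists held 44 and 40 peaks in WT and 38 and 48 in PA, with replicate 1 of each genotype given first here and in all such values below. The mean was 42 ± 2.83 in WT and 43 ± 7.07 in PA (SD, n = 2 each), so the WT values lay inside the range of the PA values (exact permutation test of the libraries, two-sided, p = 1, where the smallest p that 4 libraries allow is 0.333). The whole lists held 26280, 25941, 25683 and 29765 peaks in the same order of libraries. Per 1000 peaks of its own list, a library had 1.67, 1.54, 1.48 and 1.61 peaks in the windows, with means of 1.61 ± 0.0936 in WT and 1.55 ± 0.0941 in PA. In the upper 50% of each list alone, the windows held 29 peaks in either WT library and 32 and 40 in PA. There both PA libraries were above both WT libraries, by 7 peaks on average, which at 2 against 2 cannot give an exact permutation p under 0.333. The lists give positions and no heights, and their read depth is unknown. A call therefore says only that a place passed the caller's threshold in that library.

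**Figure D1:**
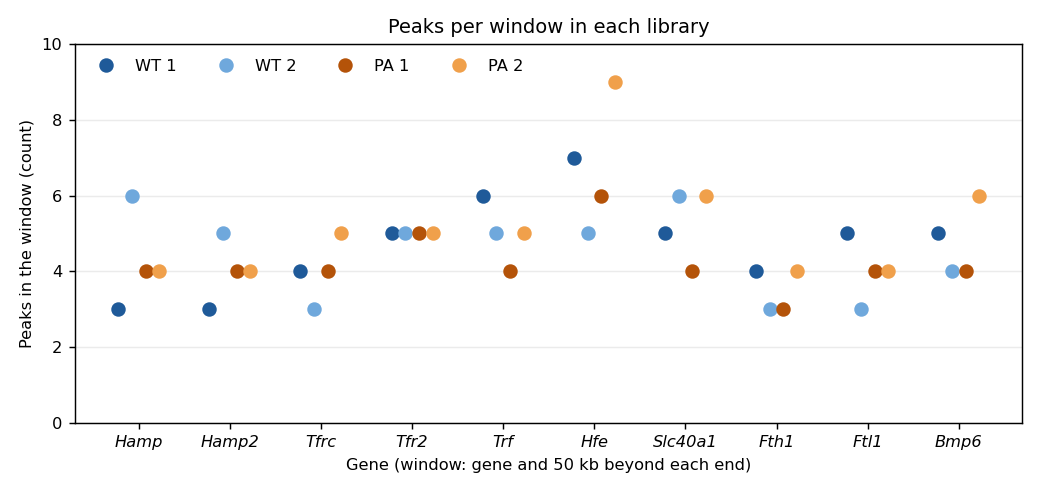
Number of peaks (vertical axis) in the window of each gene (horizontal axis), 1 point per library, blue for WT and orange for PA. Tfr2 had 5 peaks in every library, and Hfe had the widest range, from 5 in WT 2 to 9 in PA 2.

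Of the 57 regions, 32 (56.1%) were called in all 4 libraries, against 45.3% of all regions in the series. A further 12 (21.1%) were called in 1 library, against 26.8% in the series. A region was termed PA-only when each PA list held it and no WT list did, and WT-only in the reverse case. There were 2 PA-only regions (3.51%, against 3.38% in the series) and 0 WT-only regions, against 1.98%. The shares of restricted regions were thus near those of the series as a whole. Among the 10 genes, 2 had a PA-only region in the window, Tfrc and Hfe, where 9.73% of all protein-coding genes had one. No window held a WT-only region, where 6.58% of protein-coding genes had one.

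The windows held a median of 6 regions and 3 called in all 4 libraries, beside medians of 4 and 2 over all protein-coding genes. Many of these regions lay nearest to an end of a neighbouring gene. An end of one of the 10 genes was the nearest gene end for 24 of the 57 regions and for 14 of the 32 called in every library. Slc40a1 had no other protein-coding gene within 50 kb, and 6 of its 7 regions lay nearest to it. The Hfe window held 12 protein-coding genes, most of them histone genes, and only 2 of its 10 regions lay nearest to Hfe.

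**Figure D2:**
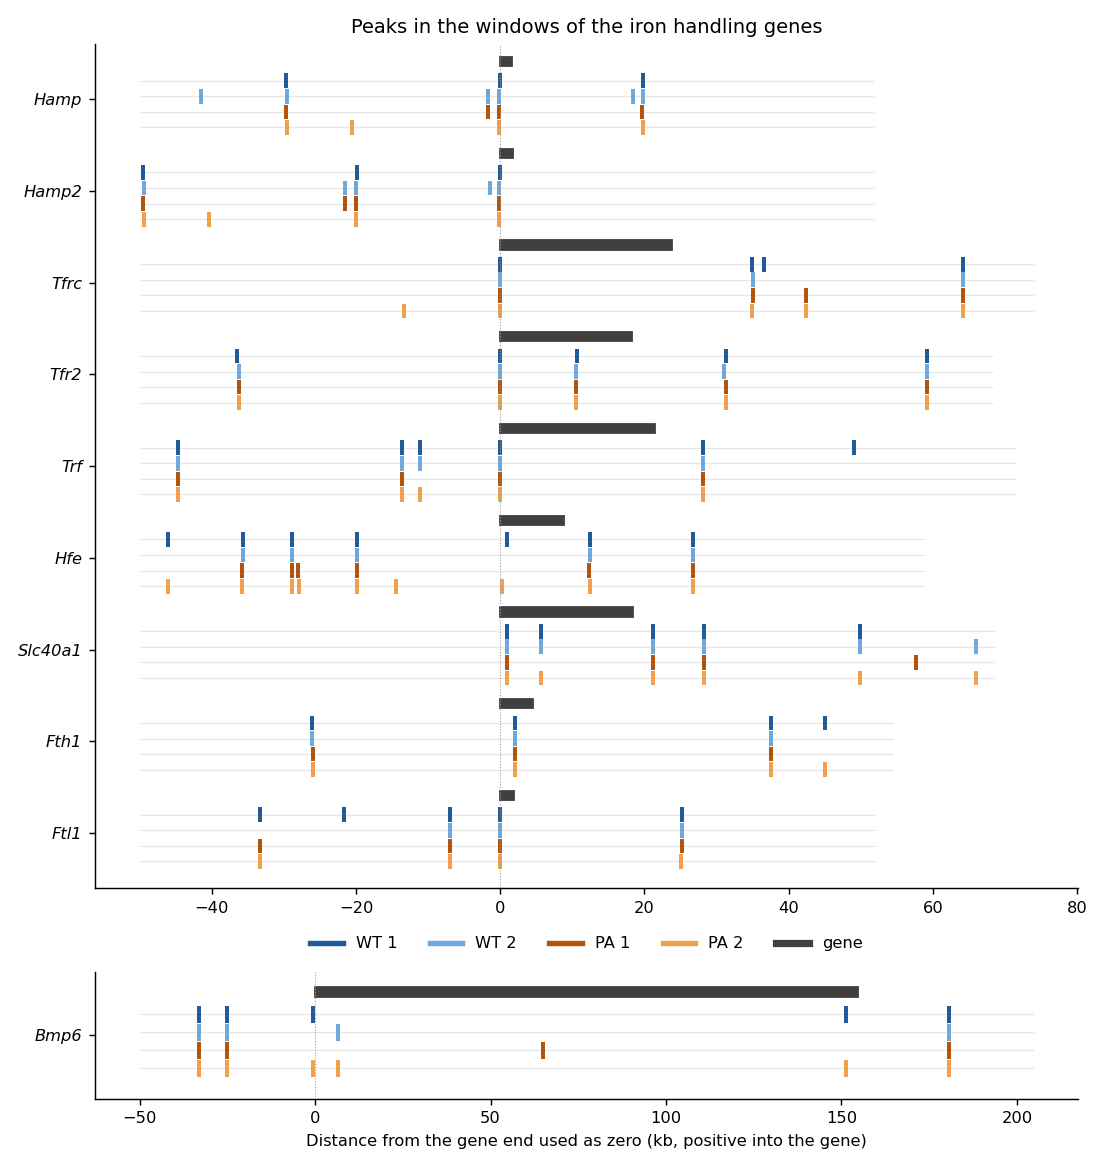
Midpoints of all peaks in the windows (ticks, 1 row per library) against distance in kb from 1 end of each gene, with the gene as a dark bar. Zero is the annotated 5′ end, or for Trf and Slc40a1, whose strand was not in the table, the end with the higher coordinate. Columns of 4 ticks are regions called in every library, and they recur at zero for Hamp, Hamp2, Tfrc, Tfr2, Trf and Ftl1 but not for Hfe or Bmp6.

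A peak lay within 1 kb of an annotated end in all 4 libraries for 7 of the 10 genes, Hamp, Hamp2, Tfrc, Tfr2, Trf, Slc40a1 and Ftl1. The share over all protein-coding genes was 41.3%, and 48.3% of them had such a peak in no library. Fth1 had none at either end, but its peak covered a second annotated start inside the gene. Counting ends or annotated starts, a choice made after the data were seen, the number was 8 of 10, against 44.5% of all protein-coding genes. At annotated starts alone it was 6 of the 8 genes in the promoter table, against 44.2% of the 17274 protein-coding genes in that table. The remaining 2 genes, Hfe and Bmp6, had an end peak in WT 1 and PA 2 and in neither of the other lists. WT 1 (26280 peaks) and PA 2 (29765) are the longest lists of their genotype and of the series. The end peaks of Hfe and Bmp6 stood 48.2% and 67.1% down the WT 1 list, and 47.3% and 73.8% down the PA 2 list. The part of list length in this was not tested.

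Of the regulators, hepcidin is described first. The Hamp region, chr7:30943866-30944377, spanned the start of the gene and was called in every library. Places of peaks in the deposited lists are given below as the percentage of the way down, so that a small value is near the top. The sources used here do not say how the authors ordered the lines. Places of the 17581 regions shared by all lists were correlated between libraries across regions (Spearman's rho from 0.858 to 0.927, a description with no test). The Hamp peak stood at 44.6% and 22.2% in the WT lists and at 23.2% and 27% in the PA lists. The WT libraries lay on either side of the PA libraries, so the genotypes overlapped. Peak midpoints fell at -36 and -104 bp from the start in WT and at -147 and -148 bp in PA, where negative values lie before the start. How often the midpoints of shared regions part by genotype over the series was not counted, so these positions are a description. In every library the peak covered both the GGCGCC at base 142 of the printed Hamp sequence and the STAT match at base 154.

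Hamp2, the neighbouring copy of Hamp, was also called at its start in all 4 libraries (chr7:30924022-30924565). Its peak stood at 55.2% and 52.3% in the WT lists and at 86.6% and 31.2% in the PA lists. It stood lower than the Hamp peak of the same library in all 4 lists. PA 1 had the lowest and PA 2 the highest place, so the spread within PA enclosed both WT values. Its midpoints fell at -40 and -97 bp from the start in WT and at -184 and -94 bp in PA, where the genotypes overlapped. The printed windows of Hamp and Hamp2 were identical at 227 of 247 aligned bases (91.9%). Of the 20 differences, G145A falls inside the GGCGCC of Hamp, written as the Hamp base, its position from 1 at the 5′ end of the printed Hamp sequence, and the Hamp2 base. The Hamp2 window held no GGCGCC, while its STAT match, at base 157 and covered by a peak in every library, had the same letters as in Hamp. Reads from stretches that are the same in both copies cannot be assigned to one of them with certainty, and the sources used here do not say how such reads were treated.

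Near Hamp and an end of the neighbouring gene Usf2, a transcription factor gene, a region at chr7:30945452-30945852 was called in WT 2 and PA 1 only. It lay 1423 bp from Hamp and 204 bp from an end of Usf2, and stood 22.2% down the WT 2 list and 26.2% down the PA 1 list. Its place was close to that of the Hamp peak in WT 2 and below it in PA 1, and WT 1 and PA 2 listed no peak there. The shared Hamp and Hamp2 windows held 7 regions, of which 3 were called in every library, the third at an end of Lsr (chr7:30973338-30973981).

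At Bmp6, the ligand upstream of Hamp, the regions called in every library lay far from the start. No library had a peak in the 250 bases before its start. The nearest region, chr13:38344852-38345252, ended 464 bp before the start and was called in WT 1 (67.1% down) and PA 2 (73.8% down) only, in the lower part of both lists. The uncalled window was rich in CpG, with 22 CpG and a GC content of 68.8%. The median was 18 CpG and 62.0% GC among the 7366 promoter windows touched by at least 1 bp of a peak in every library, and 4 CpG and 50.4% GC among the 11568 touched in none. It held an E-box, shown as overlapping ACGTG matches on both strands, and 1 match to TGACNNNGC.

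Of the 3 regions of the window called in every library, 2 lay before the gene and 1 beyond its far end. The region chr13:38312389-38312797, 32919 bp before the gene, stood at 83.5% and 66.3% in WT and at 41.6% and 27.8% in PA. The region chr13:38320329-38320810, 24906 bp before it, stood at 65.6% and 52.4% in WT and at 45.6% and 26.5% in PA. Both stood nearer the top of each PA list than of either WT list. So did the third region of the window called in every library, chr13:38526133-38526581, which lay 25819 bp beyond the far end of Bmp6 and 2243 bp from an end of Txndc5 (25.9% and 17.3% in WT, 15.9% and 13.4% in PA). Those 3 regions were singled out after their values were seen, and a place in a list with no known scale is not a measure of how open a site was.

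Because the lists differ in length, places were also taken among the 17581 shared regions alone. The region 32919 bp before Bmp6 then stood at 93.6% and 81.7% in WT and at 56.9% and 43.5% in PA. The region 24906 bp before it stood at 80.7% and 68.0% in WT and at 61.9% and 41.6% in PA, so the order of the genotypes held at both. Of the 32 regions in the windows called in every library, 7 (21.9%) stood nearer the top of both PA lists, against 24.3% of all shared regions, and 3 (9.38%) nearer the top of both WT lists, against 8.25%. By place among shared regions the counts were 4 and 4 (12.5% each), against 15.0% and 14.0% of all shared regions. The windows together were near the series on either scale. Of the 4 that were nearer the top in PA on the second scale, 3 were the Bmp6 window's and the other was the Tfr2 start. The 4 nearer the top in WT on that scale lay inside Slc40a1, at the Ftl1 start, before Fth1 and at H2ac6 in the Hfe window.

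**Figure D3:**
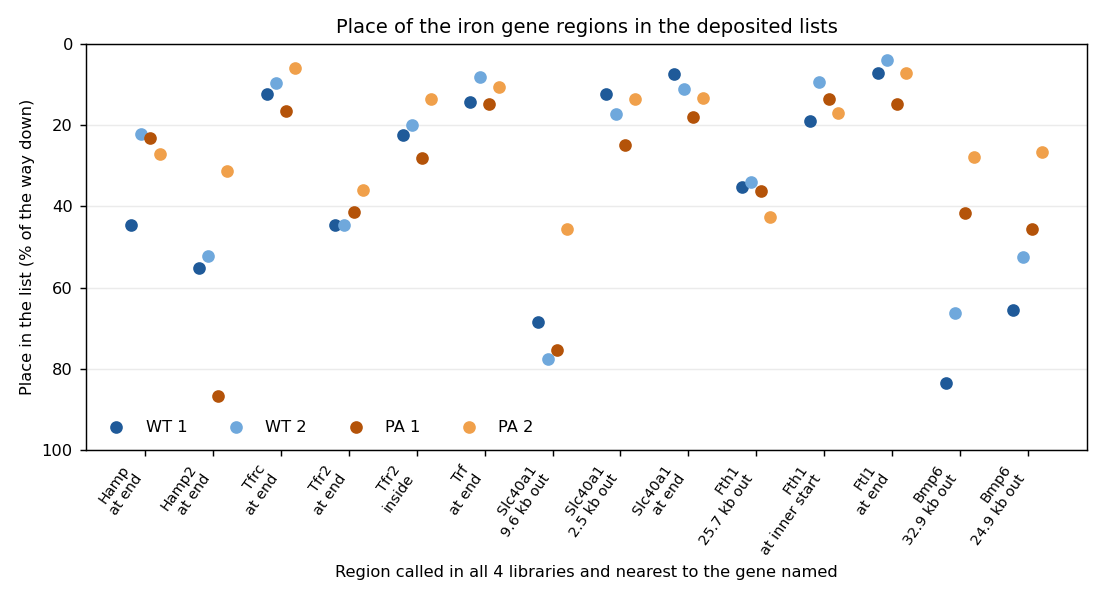
Place in the deposited list (vertical axis, % of the way down, top of the list at the top) of the 14 regions that were called in every library and lay nearest to 1 of the 10 genes, 1 point per library. At the Bmp6 regions and the Tfr2 start both PA points lie above both WT points. At the Slc40a1 region near the end of higher coordinate and the region before Fth1, both WT points lie above both PA points. At the other regions, among them Hamp, Tfrc, Trf and Ftl1, the genotypes overlap on this scale.

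Bmp6 comes from sinusoidal endothelial cells, a minority in liver, and in bulk tissue a site open in few cells cannot be told apart from a site weakly open in many. Of 8 endothelial markers, 2 (Kdr and Tie1) had an end peak in all 4 libraries, and Stab1, Stab2, Clec4g, Pecam1 and Oit3 had one in none. Of 8 Kupffer cell markers 0 had such a peak in every library. One of them, Adgre1, had an end peak in PA 1 and PA 2 and in neither WT library, from a PA-only region (chr17:57358393-57358820) close to the foot of both lists, 94.8% and 97.7% down. The PA 2 peak there lay beyond the length of the shortest list, so with lists of equal length the region would not be PA-only. Cd5l had an end peak in WT 1 and PA 2, Timd4 in PA 1, and the other 5 in no library. Of 8 erythroid markers 1 had an end peak in every library, Ermap, although no region was assigned to Ermap as its nearest gene. Of 10 hepatocyte markers 4 had one, Ttr, Apob, Fga and Cps1, next to 41.3% of all protein-coding genes. The hepatocyte share at ends was thus not above that of all protein-coding genes. When annotated starts were counted too, the number was 6 of 10, next to 44.5% of all protein-coding genes. Apoa1 had an end peak in no library, and no region lay nearest to it. Alb had an end peak in PA 1 alone but 5 regions called in every library lay nearest to it. A PA-only region lay 389 bp from an end of the hepatocyte marker Ahsg (chr16:22899840-22900256, 29.3% and 17.6% down). The nearest WT peak was 7745 bp from it, and counting both ends Ahsg had an end peak in WT 2, PA 1 and PA 2. No marker had a WT-only region, where 1.98% of all regions in the series were WT-only. PA-only regions were 1 of 37 nearest to hepatocyte markers (2.70%) and 1 of 11 nearest to Kupffer cell markers (9.09%). They were 0 of 20 for endothelial and 0 of 3 for erythroid markers, against 3.38% of all regions. With so few regions, these shares are a description. The part of cell composition in the Bmp6 values was not tested.

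Tfr2, the second transferrin receptor, had the most even window. It held 5 regions, all called in all 4 libraries. The region at its first start (chr5:137569586-137570020) stood at 44.6% and 44.5% in WT and at 41.4% and 36.0% in PA. Its ACGTG match was covered in every library. Inside the gene a further region (chr5:137580168-137580620), 7461 bp from the nearest end, stood higher, at 22.5% and 20.0% in WT and 28.0% and 13.6% in PA. The genotypes overlapped at the inner region, and at the start both PA places were above both WT places. The other 3 regions lay at ends of neighbours, Gnb2 (chr5:137533135-137533864, between 13.2% and 21.9% down), Mospd3 (chr5:137600607-137601364, between 25.9% and 35.3%) and Lrch4 (chr5:137628779-137629185, between 3.17% and 3.90%). The annotated starts 2 and 3 of Tfr2 had no peak in their 250 bases in any library.

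At Hfe, the membrane protein whose loss causes iron overload, no library had a peak in the 250 bases before the start. WT 1 listed a peak at chr13:23709768-23710167, 687 bp into the gene, 48.2% down its list. PA 2 listed another at chr13:23710360-23710759, 95 bp into the gene, 47.3% down, and the 2 peaks were 193 bp apart. WT 2 and PA 1 listed none. The Hfe window had 1 CpG and 42.0% GC, below the median of the windows touched in no library, and 1 match to TGACNNNGC.

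The regions of the Hfe window nearest the top of the lists were at histone genes, which package DNA and are not iron genes. The regions at H2ac6 (chr13:23683849-23684297) and H4c3 (chr13:23698227-23698701) stood between 3.68% and 13.2% down the 4 lists. At H2ac6 both WT places (3.99% and 3.68%) were above both PA places (9.29% and 4.25%), and at H4c3 the genotypes overlapped. They overlapped also at the other 3 regions called in every library, chr13:23730478-23730895 and chr13:23739567-23739988, both nearest to H1f2, and chr13:23746361-23746820 at H2bc3, which stood between 11.4% and 25.7%. The PA-only region of this window, chr13:23738583-23739057, overlapped an end of the linker histone gene H1f2, 27729 bp from Hfe. It stood 24.2% down PA 1 and 31.2% down PA 2, with a WT peak 510 bp from it, in the next region, which all 4 libraries called.

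Transferrin and its main receptor were called alike in all libraries. The Trf region, chr9:103230102-103230516, covered the end of the gene with the higher coordinate and stood at 14.4% and 8.18% in WT and at 14.8% and 10.7% in PA. The Tfrc region, chr16:32608621-32609021, covered the first start and stood at 12.2% and 9.66% in WT and at 16.4% and 5.92% in PA. Tfrc midpoints were the most tightly placed of the starts described, at -75 bp in WT 1, WT 2 and PA 1 and -76 bp in PA 2. The Tfrc window had 25 CpG, and its GGCGCC at base 162 was covered in every library. For both genes the WT and PA places overlapped.

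Around Trf, 4 of 6 regions were called in every library. A region 10938 bp beyond its end (chr9:103241224-103241636) was called in WT 1, WT 2 and PA 2 (52.4%, 34.3% and 40.6% down) and not in PA 1. Besides the one at Trf itself, the regions called in every library were chr9:103201909-103202344 at an end of Srprb (between 45.5% and 56.5% down) and, nearest to 1300017J02Rik, chr9:103243656-103244086 (between 24.6% and 54.6%) and chr9:103274772-103275216 (between 43.8% and 77.9%). In the Tfrc window they were chr16:32643674-32644114 at an end of Tnk2 (between 48.8% and 72.2%) and chr16:32672892-32673337, 10156 bp from Tnk2 (between 32.3% and 47.4%). The Tfrc window held the other PA-only region, chr16:32651069-32651470. It lay 18275 bp from Tfrc and 6970 bp from an end of Tnk2, a kinase gene, stood 68.6% down PA 1 and 94.8% down PA 2, and was 5372 bp from the nearest WT peak. With every list held to the length of the shortest, that region was no longer PA-only.

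Slc40a1, which encodes ferroportin, had 3 regions called in every library. One lay inside the gene, 690 bp from the end with the higher coordinate (chr1:45925438-45925842), and stood at 7.29% and 11.1% in WT and at 18.0% and 13.4% in PA. Both WT places were above both PA places there, on the scale of shared regions too (10.6% and 15.9% against 25.8% and 21.8%). A second lay 2479 bp beyond the other end (chr1:45905132-45905591) at 12.4% and 17.3% in WT and 25.0% and 13.6% in PA, where the genotypes overlapped. The third, 9582 bp beyond that end (chr1:45898035-45898488), stood lower in each list, from 45.5% to 77.7%.

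Another Slc40a1 region, inside the gene (chr1:45920622-45921049), was called in WT 1, WT 2 and PA 2, at 21.1%, 30.5% and 20.5%, and not in PA 1. Regions called in all libraries but PA 1 numbered 3 in the windows, and those called in all but WT 2 numbered 1. None was missing from WT 1 alone or from PA 2 alone. PA 1 was also the shortest list, and over the whole series 2245 of the 5213 regions called in 3 libraries were the ones that PA 1 lacked.

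The regions at the ferritin starts stood in the upper part of each list, as did those at Trf and Tfrc and the one inside Slc40a1 near its end. The Ftl1 region, chr7:45459705-45460116, covered the start and stood at 7.13% and 3.96% in WT and at 14.9% and 7.09% in PA, with midpoints between -30 and -18 bp of the start. Over all 7785 shared regions within 1 kb of a gene end the median place was 25.5% and 23.0% in WT and 20.9% and 22.2% in PA, so Ftl1 stood above the median of such regions in each list. PA 1 was the lowest of the 4, and PA 2 lay between the WT libraries. By place among shared regions the WT values, 10.4% and 5.74%, were both above the PA values, 21.4% and 11.7%, so whether the genotypes overlapped at Ftl1 depended on the scale. The other regions of the Ftl1 window called in every library lay at ends of Gys1 (chr7:45434466-45434937, between 7.50% and 13.7% down) and Bax (chr7:45466660-45467070, between 28.6% and 35.3%), and the genotypes overlapped at both.

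The Fth1 region, chr19:9982429-9982833, lay inside the gene span, 1829 bp from its nearer end, over the second annotated start at 9982646. It stood at 18.9% and 9.33% in WT and at 13.6% and 16.9% in PA, with midpoints of -18 and -13 bp from that start in WT and -13 and -18 bp in PA. Both PA values lay within the range of the WT values. A region 25738 bp before Fth1 (chr19:9954310-9954862), also called in every library, stood at 35.2% and 34.1% in WT and at 36.1% and 42.7% in PA. Both WT places were above both PA places there, and the gap between WT 1 and PA 1 was smaller than that between the WT libraries. By place among shared regions they were 48.2% and 46.4% in WT and 50.2% and 63.6% in PA, in the same order. The third, chr19:10017947-10018396, nearest to Rab3il1, stood between 16.7% and 25.5%, with both PA places above both WT places by percent of the list and an overlap among shared regions. The first annotated start, at 9980600, had no peak in its 250 bases in any library. The composition of the windows differed in the same way: 21 CpG and 66.8% GC before the second start, 3 CpG and 34.8% GC before the first. The window of the second start held 2 C/EBP matches, both covered in every library.

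Across the printed and other windows of these genes, those touched by a peak in all 4 libraries ranged from 2 CpG at Hamp2 and 4 at Hamp to 25 at Tfrc. Hamp and Hamp2 were thus called with CpG numbers at or under the median of windows touched in no library (4), and Bmp6 was uncalled with more than the median of windows touched in all (18).

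Of the other 43 iron genes, listed by role, 31 (72.1%) had an end peak in all 4 libraries, next to the 41.3% of all protein-coding genes, and 33 did when annotated starts were counted too. Among genes of hepcidin control by BMP and SMAD it was 11 of 16, with Hjv, the BMP co-receptor, and Tmprss6, the protease that cleaves it. Id1, a target of BMP signalling, and Erfe, the erythroid hormone that lowers hepcidin, had an end peak in no library. All 3 iron sensing genes had one in every library, Aco1 and Ireb2, which encode the iron regulatory proteins, and Fbxl5, which directs Ireb2 protein to degradation. So did 7 of 8 genes of mitochondrial iron and haem, the exception being Iscu, called in WT 1, WT 2 and PA 2. The 7 include Nfs1, although no region was assigned to Nfs1 as its nearest gene.

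For iron and haem uptake the count was 6 of 9, with Slc39a14, a zinc and iron importer of hepatocytes, Hpx and Hp. Slc39a8 had an end peak in no library but a peak at an annotated start in all 4, and Cd163, the haptoglobin-haemoglobin receptor of macrophages, had neither. Of the export and oxidation genes 1 of 3 was called, Flvcr1. Heph and Cp had an end peak in no library, although 3 regions called in every library lay nearest to Cp, the gene of ceruloplasmin. Storage and chaperone genes were called in 3 of 4 cases, and Ftmt, mitochondrial ferritin, in none.

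**Figure D4:**
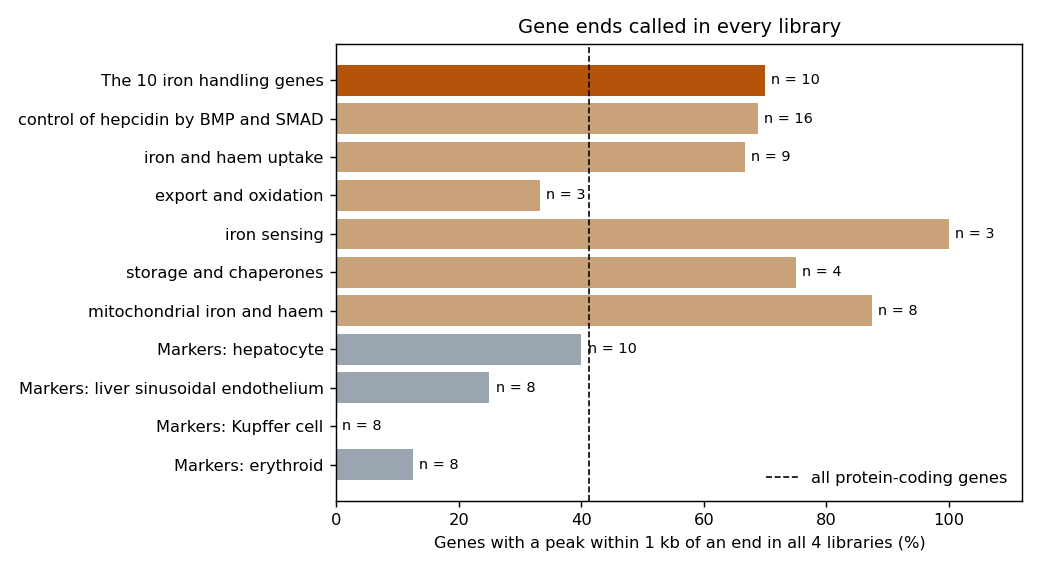
Percentage of genes with a peak within 1 kb of an end in all 4 libraries, for the 10 genes, the other iron genes by role and markers of 4 cell types, with the number of genes beside each bar and a dashed line at 41.3% for all protein-coding genes. The 10 genes reach 70.0%, and Kupffer cell markers 0.

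Of 115 regions nearest to these 43 genes, 4 were PA-only (3.48%, against 3.38% of all regions) and 2 WT-only (1.74%, against 1.98%). These shares were close to those of the series, and the regions are given as a description. The PA-only ones lay nearest to Bmp2, a second BMP ligand of liver endothelium (chr2:133533290-133533702, 18457 bp from the gene, 83.5% and 83.6% down PA 1 and PA 2), inside Acvr2a, an activin and BMP receptor (chr2:48834123-48834551, 92.9% and 87.3%), 38066 bp from an end of the inhibitor Smad6 (chr9:64060151-64060613, 66.3% and 68.0%) and 6213 bp from Fbxl5 (chr5:43788362-43788796, 74.3% and 82.4%). All 4 stood in the lower part of both PA lists. The PA 2 peak in Acvr2a lay beyond the length of the shortest list, so with lists of equal length that region would not be PA-only. The WT-only ones were 5631 bp from Hp (chr8:109584803-109585258, 46.5% and 35.8% down WT 1 and WT 2) and inside Fech, ferrochelatase (60.6% and 55.8%). Acvr2a, Smad6, Fbxl5, Hp and Fech each had an end peak in all 4 libraries besides. Bmp2 had one in WT 2, PA 1 and PA 2.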

How the data were processed

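ATAC-seq was done on 20 mg of frozen liver with the Omni-ATAC protocol, per the labels. The authors deposited 1 list of peak positions per library, with no value per peak, nearly all 400 bp long. The submitters' processing notes name HOMER 4.10, bedtools 2.31.0, SAMtools 1.17, Bowtie2 2.5.1, cutadapt 3.5 and R 4.1.2, and the build GRCm38 (mm10). The sources used here give neither the peak caller and its threshold nor the read filters, nor whether read ends were shifted for the transposase.

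Lists were read with Python 3.11.15 and pandas 2.3.3. Peaks that overlapped or touched were merged into regions, and 1 bp of a library's peak counted as a call. Gene positions were those of RefSeq on GRCm38.p6, in a table that gives no strand. Strands and starts came from the RefSeq promoter table. A region was assigned to the nearest protein-coding gene end within 50 kb. Where it overlapped ends of several genes, only the gene of the end with the lowest coordinate was credited. Hamp and Hamp2 were aligned globally with Biopython 1.88 and free end gaps. The exact permutation test used SciPy 1.17.1. Merging and calling were tested on simulated peaks, and motif search on short made-up sequences for some of the motifs.

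The 10 genes, the other lists and the motifs were chosen with earlier results of these data known. All 10 genes are named. Their regions are named singly when called in every library, restricted to a genotype or nearest a start, and others where a sentence says so. Other iron genes are named when restricted regions lay nearest to them or no library had an end peak, with examples by role. The series design calls the replicates biological. Alternatives were other windows, merging rules, distances and list lengths, the replicate number as a block, and leaving out each library.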

Additional observations from a re-analysis of the deposited data

How the results depend on the processing

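Calls at gene ends were the most stable values: the number of the 10 genes with an end peak in every library stayed between 6 and 8, and that of the 43 other iron genes between 22 (of the 26 in the promoter table) and 33, over all alternatives run. Regions called in every library numbered 32 of 57. They numbered 24 to 35 under all alternatives but windows of 10 kb, which hold fewer regions (14 of 23).

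The difference in peaks between genotypes, 1 more in PA, had no stable direction. It was -0.5 with windows of 10 kb, 0 with lists of equal length, -0.062 per 1000 peaks of the list, 7 in the upper 50% of each list, where the genotypes did not overlap, and from -4 to 6 when each library was left out in turn. It was -1 without WT 2 and -4 without PA 2. The cause was not tested.

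PA-only regions, 2 in all, numbered 0 with windows of 10 kb, 1 with lists of equal length, 4 in the upper 50% of each list, and from 2 to 6 with a library left out. WT-only regions, 0 in all, numbered from 0 to 4 with a library left out. Without a library its genotype needs only 1 call, a looser condition by construction, and cut lists admit regions whose other calls lie past the cut. PA-only regions were 6 without PA 1 and 4 without PA 2, and WT-only regions were 2 without WT 1, 4 without WT 2 and 3 without PA 2.

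With the replicate number as a block, added after the data were seen, PA minus WT was -6 peaks for number 1 and 8 for number 2, a mean of 1 as without the block (exact paired permutation test, two-sided, p = 1, where the smallest possible is 0.5). The labels do not say that a number joins a WT and a PA mouse. Deviations of same-numbered libraries from their group means, in place among the 17581 shared regions, had r = -0.135 across regions. Read depth is unknown, so a missing call does not show that a site was closed.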
